A study of Mus musculus with 4 samples.

Results

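The genes described here build and steer the actin cytoskeleton of a T cell and the contact it forms with an antigen-presenting cell, the immune synapse. They were taken by symbol from a list of 43 genes that was chosen with earlier results of these data known. It covers actin and its monomer-binding proteins, the Arp2/3 complex and its activators, capping and severing proteins and ERM linkers. It also covers non-muscle myosin II, small GTPases with their exchange factors, elongation factors and crosslinkers. All 43 were found among the 50600 genes of the deposited tables. They were measured by RNA sequencing in 4 libraries of mouse regulatory T cells, the Foxp3-dependent CD4+ cells that hold other immune cells in check. The 4 libraries, biological replicates 1 to 4, form a single group: primary cells of strain C57BL/6NJ, with age unknown, sex not collected and no genotype or treatment labelled. The labels give 4 biosamples and a donor record common to all of them, and do not state whether animals or cultures differed. P-values below thus measure only spread between these samples, and how much of that spread is technical is not known. Per the file headers, sample names include "activated", "sorted" and 72 h, and the labels link a protocol for differentiating CD4+ T cells.

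Actin monomers assemble into filaments that grow at their barbed ends. Profilin delivers monomers to growing ends, thymosins hold them in reserve, cofilin severs old filaments, and the Arp2/3 complex starts branches when WASP or WAVE proteins activate it downstream of Cdc42 and Rac. When a T cell meets its target, a ring of branched actin spreads at the contact, ERM proteins tie the membrane to the cortex, and myosin II contracts the network. Regulatory T cells use this machinery to hold on to dendritic cells.

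The depth of the libraries was 46044354 counts for replicate 1, 72147632 for replicate 2, 94983494 for replicate 3 and 32648138 for replicate 4. With 1 group there was no contrast between conditions. The questions were therefore how the 43 genes rank, which of 2 related genes is higher within a library, and whether any member differed across libraries more than other genes of its level. All 7 T cell and regulatory T cell markers fixed for these libraries were expressed, with a summed level of 3285 to 3616 TPM (counts divided by exon length and scaled to the same total in every library), and Foxp3 stood at 463 ± 25.4 TPM (SD, n = 4). Libraries 1 and 2 held 312 and 331 TPM of Xist, the RNA that coats the inactive X chromosome, and libraries 3 and 4 held 0.539 and 2.38 TPM. Xist thus set libraries 1 and 2 apart from libraries 3 and 4, a difference that the labels, with sex not collected, do not give. Replicate 1 also held more of the non-coding RNA Malat1, at 131 TPM, than replicates 2, 3 and 4, at 55.2, 44.1 and 42.5 TPM. Gm42418, a locus carrying sequence of ribosomal RNA, differed more, with 11891 TPM in replicate 1 and 4335, 2980.3 and 1555 TPM in the others.

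The 43 genes were abundant in every library. Because they were chosen with earlier results of these data known, the shares below describe the list and do not test it. All 43 reached 1 TPM in each of the 4 libraries, against 23.9% of all genes in the tables, and 39 averaged over 100 TPM, against 3.9%. Of the 43, 9 averaged over 1000 TPM, against 0.213% of all genes, and the same 9 stood among the 100 most abundant genes. The median member stood at 339 TPM, whereas the median of the 12114 genes at 1 TPM or more in every library was 26.2 TPM. Together the 43 genes held 3.22%, 3.25%, 3.27% and 3.23% of all TPM in replicates 1 to 4, a mean of 3.24 ± 0.0223%. This share was unevenly divided, since Actb alone took 26.8% of it, the 2 highest genes 37.4%, the 5 highest 52.6% and the 9 highest 68.7%. Counts per library and gene ran from 405 to 669863, so counting error was small for all of them.

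**Figure D1:**
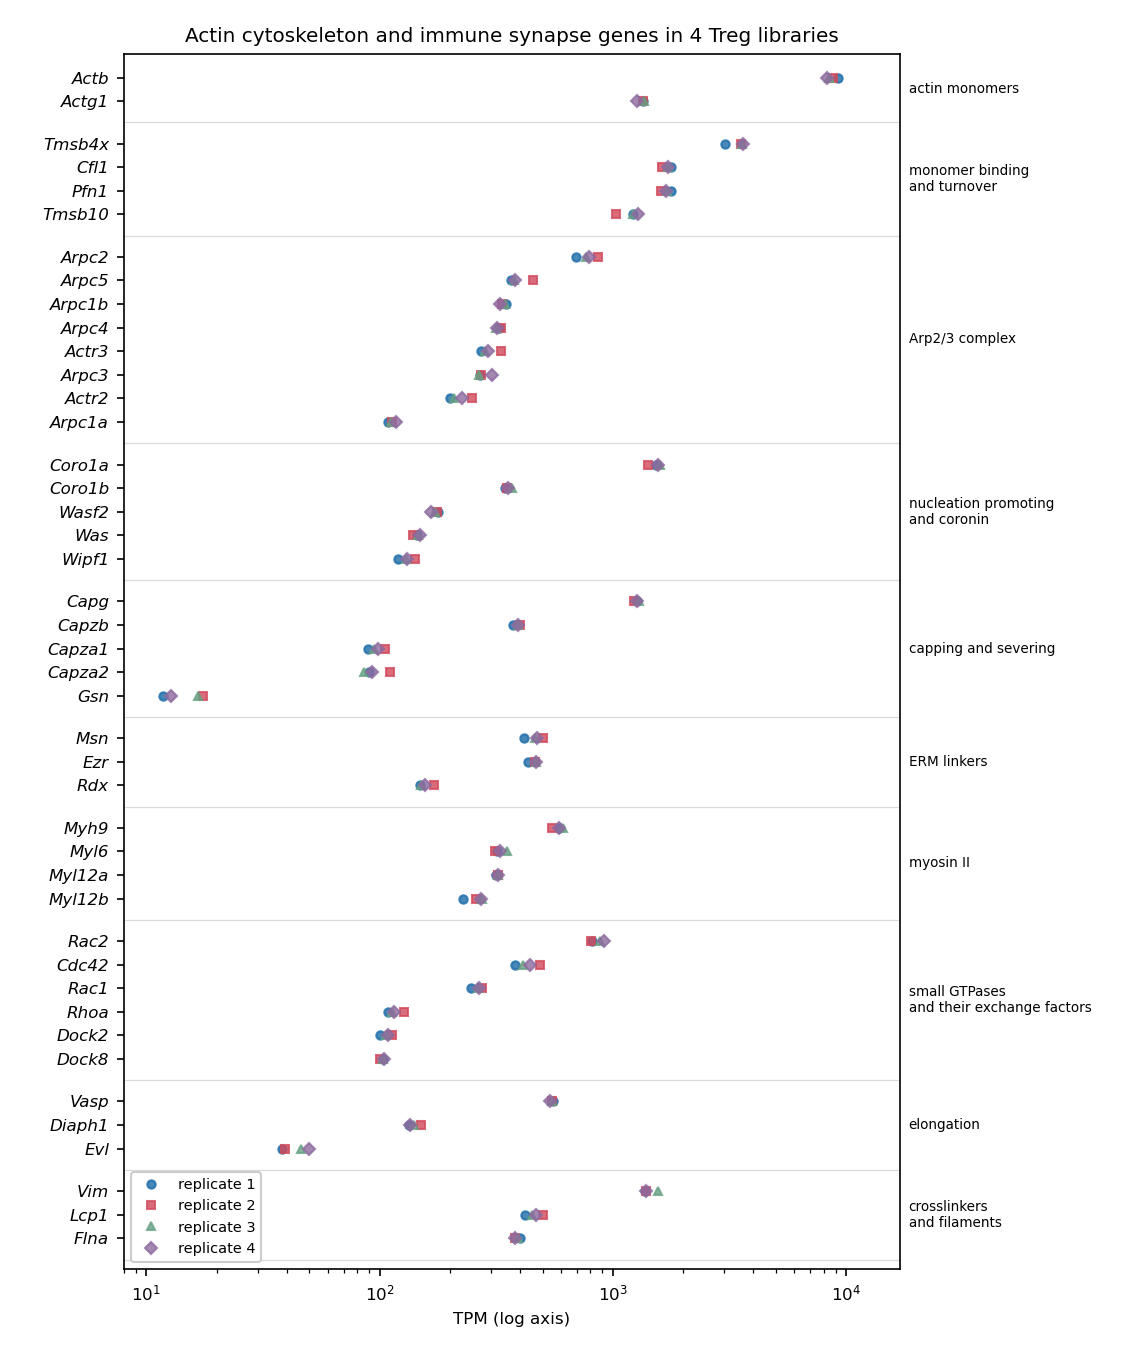
TPM of each of the 43 genes in each of the 4 libraries, on a log axis, grouped by role and ordered by mean within a role. Symbols mark the replicates. Actb stands highest, at 8238 to 9181 TPM, and Gsn lowest, at 11.8 to 17.4 TPM.

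Actin monomers came first. Actb encodes beta-actin, the main cytoplasmic actin, and lies at chr5:142903115-142906754 on the minus strand of mm10 (ENSMUSG00000029580.14). It measured 9181, 8787, 8472 and 8238 TPM in replicates 1 to 4, a mean of 8669 ± 409 TPM (SD, n = 4), and ranked 7 among all genes. Actg1 encodes gamma-actin, the other cytoplasmic actin, and lies at chr11:120345690-120348542 on the minus strand (ENSMUSG00000062825.15). It measured 1342, 1348, 1353 and 1270.3 TPM, a mean of 1328 ± 38.9 TPM. Actb was 6.26 to 6.84 times as high as Actg1 within a library, and on the log2(TPM + 1) scale it was higher by 2.70 ± 0.05 in 4 of 4 libraries. The exact two-sided sign-flip permutation p was 0.13, the smallest that 4 libraries can give, and 0.156 after Benjamini-Hochberg adjustment over the 15 pairs compared. The same p and adjusted p hold for each pair below whose difference had 1 sign in all libraries. Such pairs compare different transcripts, so they also carry differences in how each transcript is captured.

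The coding sequences of Actb and Actg1 are identical at 997 of 1125 bases, with a longest identical run of 62 bases. More of the Actg1 transcript recurs elsewhere in the genome's transcripts: 55.9% of its 50-base windows and 51.1% of its 100-base windows are found in genes at other loci, against 14.2% and 1.10% for Actb. Reads that matched several places were not counted, so the Actg1 level is uncertain and may be too low. The gene that shares most windows with Actg1, Gm12715, held counts amounting to 0.548% of those of Actg1. The muscle actins were nearly silent beside these levels. Acta1, Acta2 and Actc1, the skeletal, smooth muscle and cardiac alpha-actins, averaged 0.0900, 0.0332 and 0.0209 TPM, and Actbl2 averaged 0.0376 TPM. Actg2, the enteric gamma-actin, was the highest of the 5 actin paralogs, at 6.83 ± 1.69 TPM.

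Serum response factor and its actin-sensing partners, the MRTF proteins, regulate many actin genes through a DNA element called the CArG box. RefSeq promoter windows, from 250 bases before to 50 after an annotated start (GRCm38.p6, the assembly of mm10), were found for 38 of the 43 genes, with 50 windows in all, and not for Actb, Rac1, Rac2, Diaph1 and Coro1b. A CArG box, searched as CC, then 6 bases each A or T, then GG, on both strands, was present in 3 of the 50 windows (6%), those of Actg1, Myl6 and Arpc4, against 1.63% of all 32851 windows. CCAAT was present in 22% of the 50 windows, against 37.4% of all, and TATAAA in 8%, against 13.6%, each searched on both strands. These are matches of letters and not measured binding. The Actg1 window, chr11:120348446-120348745 on the minus strand, and the Myl6 window, chr10:128492960-128493259 on the minus strand and starting from an annotated start inside the Myl6 locus, are shown because each holds a CArG box, in capitals, 90 and 50 bases before the annotated start.
Actg1: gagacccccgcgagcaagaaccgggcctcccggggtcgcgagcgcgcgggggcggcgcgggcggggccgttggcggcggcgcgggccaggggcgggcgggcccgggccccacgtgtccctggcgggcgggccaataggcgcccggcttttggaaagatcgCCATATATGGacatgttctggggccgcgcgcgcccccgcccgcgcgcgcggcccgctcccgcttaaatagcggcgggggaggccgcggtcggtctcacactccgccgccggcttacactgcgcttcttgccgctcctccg
Myl6: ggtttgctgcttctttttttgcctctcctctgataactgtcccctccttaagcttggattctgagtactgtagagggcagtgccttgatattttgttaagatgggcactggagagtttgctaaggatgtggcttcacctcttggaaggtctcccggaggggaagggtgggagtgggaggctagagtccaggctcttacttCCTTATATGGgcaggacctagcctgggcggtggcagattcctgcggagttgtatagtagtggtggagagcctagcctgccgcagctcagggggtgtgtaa
The regulators themselves were expressed in every library, with Srf at 89.1 ± 8.75 TPM, Mrtfa at 58.9 ± 3.39 TPM and Mrtfb at 8.75 ± 0.607 TPM.

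Monomer-binding and turnover genes held 4 of the 9 highest levels. Tmsb4x, thymosin beta 4, the main store of unpolymerised actin, lies at chrX:167207093-167209315 on the minus strand (ENSMUSG00000049775.16). It measured 3008, 3539, 3579 and 3605.5 TPM, a mean of 3433 ± 285 TPM, and ranked 18 among all genes. Replicate 1 was the low library, and the other replicates lay close together. Tmsb10, its relative, measured 1216, 1026, 1217 and 1283 TPM, a mean of 1185 ± 111 TPM, with replicate 2 low. Tmsb4x was 2.47 to 3.45 times as high as Tmsb10 within a library, a difference of 1.53 ± 0.20 (log2), positive in 4 of 4 libraries. The ratio was lowest in replicate 1 and highest in replicate 2, the libraries in which Tmsb4x and Tmsb10 were low in turn. The 2 short coding sequences are identical at 92 of 132 bases (69.7%). Of the 50-base windows of Tmsb10, 43.5% recur in genes at other loci, which leaves its level uncertain.

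Cfl1, cofilin 1, which severs filaments and returns monomers, measured 1782, 1619.6, 1718 and 1727 TPM, a mean of 1712 ± 67.5 TPM. Pfn1, profilin 1, measured 1769.6, 1611, 1709 and 1684 TPM, a mean of 1694 ± 65.6 TPM. The values of both genes overlapped, and both were highest in replicate 1 and lowest in replicate 2. Their order depends on the length used for TPM. The tables give the length of all exons of a gene merged. The principal transcript length used instead is the median over the top-ranked isoforms that APPRIS marks as principal in GENCODE M21. With it Pfn1 stood at 3178 TPM and Cfl1 at 1149.9 TPM. The length of Cfl1 was 2354 bases by both, so its lower level reflects only the rescaling of all genes to the same total. That rescaling is part of every level by principal length below. Among the paralogs of these genes Cfl2 was the highest, at 11.95 ± 0.642 TPM, Pfn2 stood at 6.30 ± 1.17 TPM, Pfn4 averaged 0.419 TPM and Pfn3 had no count.

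The Arp2/3 complex has 7 subunits, all of which were expressed. Arpc2, a core scaffold subunit, was the highest of the 8 member genes, at 779.6 ± 68.3 TPM, followed by Arpc5 at 395 ± 41.2 TPM. Arpc1b, the Arpc1 isoform prominent in blood cells, measured 348, 334, 346 and 328 TPM, and Arpc1a, its paralog, 109, 113, 112 and 118 TPM. Arpc1b was 2.78 to 3.19 times as high, a difference of 1.58 ± 0.09 (log2) in 4 of 4 libraries, so the b isoform made up 74.99 ± 1.13% of the 2 together. The libraries of the 2 genes did not overlap. Both sit on chromosome 5, Arpc1b at chr5:145114215-145130705 and Arpc1a at chr5:145083830-145108761, as neighbours on the plus strand.

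Actr3, the actin-related protein Arp3, measured 273, 331, 283 and 291 TPM, and Actr2, encoding Arp2, 199.5, 248, 209 and 225 TPM. Both were highest in replicate 2 and lowest in replicate 1. Actr3 was higher by 0.42 ± 0.03 (log2) in 4 of 4 libraries, and by 0.75 ± 0.03 with principal transcript lengths. The Actr3 level is among the uncertain ones, since 49.8% of its 50-base windows recur at other loci. Arpc4 stood at 322 ± 7.55 TPM and Arpc3 at 277 ± 17 TPM. Of the exon bases of Arpc4, 12.2% overlap another gene on the same strand, where reads were not counted.

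Summed over the genes that can fill it, each subunit of the Arp2/3 complex stood between 220.4 TPM (Actr2) and 779.6 TPM (Arpc2). The Arpc5 position, filled by Arpc5 and Arpc5l, stood at 469 ± 44.7 TPM, and the Arpc1 position at 452 ± 6.5 TPM. The Arp3 position, Actr3 with Actr3b, stood at 332 ± 26.8 TPM. With principal transcript lengths the order changed, because Arpc3 stood at 572 TPM and Arpc4 at 221 TPM, whereas Arpc2 remained the highest, at 749 TPM. Replicate 2 was the highest library for Actr2, Actr3, Arpc2 and Arpc5 in TPM and in log2 CPM, for Arpc4 in TPM but not in log2 CPM, and for Arpc1a, Arpc1b and Arpc3 in neither.

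**Figure D2:**
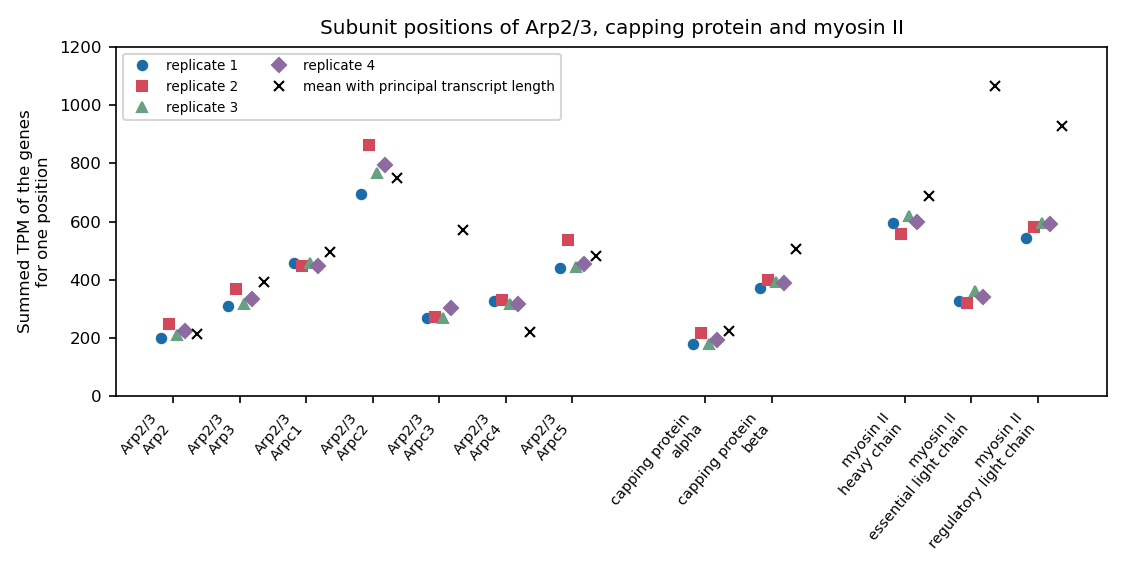
Summed TPM of the genes that encode each subunit position of the Arp2/3 complex, capping protein and myosin II, in each of the 4 libraries (coloured symbols), with the mean recomputed from principal transcript lengths as a cross. The cross lies far above the symbols for Arpc3 and for both myosin light chains, at 572, 1067 and 929.7 TPM, and below them for Arpc4, at 221 TPM. The crosses are rescaled to the same total over all genes, and the length of Arpc4 itself changed little, from 2321 to 2270 bases.

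Among the nucleation-promoting factors and their partner, Wasf2, Was and Wipf1 stood below each summed subunit position of the complex they act on, though above Arpc1a taken alone. By principal transcript length Was fell below Arpc1a, at 109 against 119 TPM, while Wasf2 and Wipf1 stayed above it, at 185 and 128 TPM. Wasf2, the WAVE2 protein that drives branching downstream of Rac, measured 177, 177, 172 and 166 TPM, a mean of 173 ± 5.39 TPM. Was, the Wiskott-Aldrich syndrome protein of blood cells, measured 145, 138, 146 and 149 TPM, a mean of 145 ± 4.57 TPM, and Wipf1, which binds and stabilises it, 131 ± 8.83 TPM. On the log2(TPM + 1) scale Was minus Wasf2 was -0.26 ± 0.09 and negative in 4 of 4 libraries, so Was was lower throughout. With principal transcript lengths this difference was -0.75 ± 0.09. Among the paralogs Wipf2 stood at 24.3 ± 1.24 TPM and Wasl, the widely expressed N-WASP, at 11.9 ± 0.423 TPM. Wasf1 averaged 0.379 TPM, Wipf3 0.0161 TPM, and Wasf3 had no count.

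Of 16 other genes of the WAVE complex and nucleation control, 14 were expressed in every library. The highest was Hcls1, the blood cell relative of cortactin that stabilises branches, at 767 ± 9.63 TPM, while Cttn, cortactin itself, stood at 48.3 ± 4.49 TPM. For the WAVE complex, Nckap1l, the Hem1 subunit of blood cells, stood at 264 ± 22.8 TPM and Nckap1, the same subunit elsewhere, at 33.0 ± 4.74 TPM. Cyfip2 likewise stood at 181.6 ± 10.5 TPM and Cyfip1 at 27.5 ± 1.85 TPM, and Brk1, the small subunit, at 327 ± 5.76 TPM. The 2 genes not expressed throughout were the formin Fmnl2, with a mean of 0.655 TPM, and Arpin, an Arp2/3 inhibitor, with 0.128 TPM.

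Coronins disassemble and remodel branched networks. Coro1a, the coronin of blood cells, measured 1534, 1416, 1583 and 1556 TPM, a mean of 1522 ± 73.7 TPM. Coro1b measured 346, 351, 369 and 356 TPM, a mean of 355 ± 10.2 TPM. Coro1a was 4.04 to 4.44 times as high, by 2.09 ± 0.06 (log2) in 4 of 4 libraries. Another 3 coronins were expressed, Coro2a at 135 ± 4.23 TPM, Coro7 at 95.7 ± 3.64 TPM and Coro1c at 92.1 ± 1.35 TPM. Coro6 and Coro2b were not expressed in every library, with means of 1.06 and 0.0953 TPM.

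Capping and severing genes spanned the widest range of levels. Capg caps barbed ends without severing and lies at chr6:72544391-72562983 on the plus strand (ENSMUSG00000056737.14). It measured 1272, 1233, 1298 and 1266 TPM, a mean of 1267 ± 26.7 TPM. Gsn encodes gelsolin, which severs and then caps filaments, and lies at chr2:35256380-35307892 on the plus strand (ENSMUSG00000026879.14). It measured 11.8, 17.4, 16.7 and 12.8 TPM, a mean of 14.7 ± 2.81 TPM, the lowest of the 43 genes and rank 7863 among all genes. Capg was 70.7 to 108 times as high as Gsn, by 6.36 ± 0.27 (log2) in 4 of 4 libraries, the widest gap of the 15 pairs. Replicates 2 and 3 held more Gsn than replicates 1 and 4. Other relatives of gelsolin were Flii at 146 ± 3.08 TPM, Scin, scinderin, at 23.3 ± 2.46 TPM and Svil, supervillin, at 21.5 ± 0.964 TPM. Avil averaged 0.238 TPM, and Vil1, villin, had no count.

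Capping protein is a dimer of an alpha and a beta chain. Its alpha chains Capza1 and Capza2 could not be separated in level. Capza1 measured 88.8, 105, 94.6 and 98.1 TPM and Capza2 89.7, 111, 85.4 and 93.0 TPM, and the libraries overlapped. Capza1 minus Capza2 was 0.03 ± 0.10 (log2), positive in 2 and negative in 2 of 4 libraries (exact two-sided sign-flip permutation p = 0.625, adjusted 0.670). With principal transcript lengths the difference was -0.93 ± 0.10, with Capza1 at 76.9 TPM and Capza2 at 148 TPM, so the order of this pair depends on the length. In addition 73.8% of the 50-base windows of Capza1 recur at other loci, the highest share of the 43 genes, and the coding sequences of the pair are identical at 76.8% of bases. The beta chain gene Capzb stood at 389 ± 11.8 TPM, and both alpha chains together at 191 ± 17.3 TPM, with 506.5 and 224.6 TPM by principal lengths. The third alpha chain gene, Capza3, had no count.

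ERM proteins link filaments to the membrane and shape the synapse. Msn, moesin, measured 415, 500.2, 463 and 472 TPM, a mean of 463 ± 35.2 TPM. Ezr, ezrin, measured 431, 463, 470.2 and 468 TPM, a mean of 458 ± 18.5 TPM. Rdx, radixin, measured 149, 171, 149.8 and 156 TPM, a mean of 156 ± 10.1 TPM. Msn and Ezr overlapped, with a difference of 0.01 ± 0.07 (log2), positive in 2 and negative in 2 libraries (exact permutation p = 0.875, adjusted 0.875). Radixin lay below both in 4 of 4 libraries, with Msn minus Rdx at 1.56 ± 0.06 and Ezr minus Rdx at 1.54 ± 0.09. The tie of Msn and Ezr rests on the merged exon length, since with principal transcript lengths Msn was higher by 0.67 ± 0.07. The kinases that phosphorylate ERM proteins in lymphocytes, Stk10 and Slk, stood at 132 ± 4.66 and 41.7 ± 2.33 TPM.

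Non-muscle myosin II pairs heavy chains with essential and regulatory light chains. Myh9, the heavy chain IIA, stood at 582 ± 26.5 TPM, whereas Myh10, heavy chain IIB, stood at 9.50 ± 0.731 TPM and Myh14 had no count. Myl6, the essential light chain, stood at 328 ± 16.6 TPM, against 9.91 ± 1.90 TPM for its paralog Myl6b. By principal transcript length Myl6 stood at 1055 TPM, 3.22 times the level above and the largest such change among the 43 genes, and 53.3% of its 50-base windows recur at other loci. Of the smooth muscle forms, Myh11 averaged 1.47 TPM and Myl9 had no count.

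The regulatory light chains Myl12a and Myl12b are neighbours on chromosome 17, at chr17:70993656-71002878 and chr17:70973920-70990787 on the minus strand. Their coding sequences are identical at 498 of 516 bases (96.5%), with a longest identical run of 102 bases. The first 120 coding bases of each, from GENCODE M21 transcripts, are shown because they carry 5 of the differences (capitals) by which reads can be told apart.
Myl12a: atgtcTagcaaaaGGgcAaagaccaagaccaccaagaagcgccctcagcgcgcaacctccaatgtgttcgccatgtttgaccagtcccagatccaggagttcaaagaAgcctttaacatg
Myl12b: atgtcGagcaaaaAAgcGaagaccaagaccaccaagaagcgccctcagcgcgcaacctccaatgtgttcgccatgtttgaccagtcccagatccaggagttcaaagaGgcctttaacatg
Over the whole of each gene's longest principal transcript (1937 bases for Myl12a and 2143 for Myl12b) the overlap was smaller. Of the 50-base windows, 11.5% of those of Myl12a and 11.4% of those of Myl12b recurred elsewhere, mostly in each other. Of the 100-base windows, 1.14% and 1.03% did. Myl12a measured 314, 321, 320.4 and 321 TPM, a mean of 319 ± 3.29 TPM and the smallest coefficient of variation of the 43 genes (1.03%). Myl12b measured 228, 259.9, 273 and 272 TPM, a mean of 258 ± 21.2 TPM, with replicate 1 low. Myl12a was higher by 0.31 ± 0.11 (log2) in 4 of 4 libraries, and its lowest library lay above the highest of Myl12b. With principal transcript lengths, here medians of 926.5 bases for Myl12a and 1572 for Myl12b, the difference was 1.97 ± 0.11. Myl12a then stood at 741 TPM and Myl12b at 189 TPM, so the sign of the difference held and its size did not. All regulatory light chain genes together stood at 577 ± 24.3 TPM, the heavy chains at 592 ± 26.9 TPM and the essential light chains at 338 ± 17.6 TPM. By principal lengths these were 929.7, 689 and 1067 TPM.

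Small GTPases switch the cytoskeleton between protrusion and contraction. Rac2, the Rac of blood cells, measured 810.3, 807, 883 and 913 TPM, a mean of 853 ± 53.0 TPM. Rac1, the widely expressed Rac, measured 245, 276, 264 and 268 TPM, a mean of 263 ± 12.9 TPM. Rac2 was 2.92 to 3.41 times as high, by 1.69 ± 0.10 (log2) in 4 of 4 libraries, and its coding sequence is identical to that of Rac1 at 77.1% of bases. Cdc42, which activates WASP, stood at 429.7 ± 46.5 TPM and Rhoa, which activates formins and myosin, at 116 ± 7.97 TPM. Rhoa stood at 266 TPM by principal length, so its place below Cdc42 held while its distance did not. Of 8 other genes of the family 7 were expressed, with Rhog, a regulator upstream of Rac, the highest at 394 ± 21.3 TPM. Rhoj was the exception, with a mean of 0.212 TPM.

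Dock2 and Dock8 load GTP onto Rac and Cdc42. Dock2 measured 100.2, 113, 106 and 109 TPM and Dock8 104, 100.4, 103 and 104 TPM. The libraries overlapped, and Dock2 minus Dock8 was 0.05 ± 0.09 (log2), positive in 3 and negative in 1 of 4 libraries (exact permutation p = 0.375, adjusted 0.433). With principal transcript lengths Dock2 was higher by 0.88 ± 0.09. Among 12 genes that control these GTPases or act below them, all expressed, the GDP dissociation inhibitors Arhgdia, at 1585 ± 87.8 TPM, and Arhgdib, the form of blood cells, at 1019 ± 48.3 TPM, were the highest. The Rac exchange factor Vav1 stood at 185 ± 4.71 TPM.

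Elongation factors extend unbranched filaments. Vasp, which carries profilin-bound actin to growing ends, measured 556, 549, 547 and 538 TPM, a mean of 548 ± 7.45 TPM. Evl, of the same Ena/VASP family, measured 38.1, 39.3, 45.9 and 49.9 TPM, a mean of 43.3 ± 5.57 TPM. Vasp was 10.8 to 14.6 times as high, by 3.64 ± 0.20 (log2) in 4 of 4 libraries. Enah, the third family gene, averaged 1.17 TPM and was not at 1 TPM in every library. The formin Diaph1 stood at 139.7 ± 7.40 TPM, and its paralogs Diaph3 and Diaph2 at 45.1 ± 5.80 and 11.1 ± 1.81 TPM.

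Crosslinkers and filaments closed the list. Vim, vimentin, encodes an intermediate filament rather than an actin-binding protein, and stood at 1429 ± 92.3 TPM. The other intermediate filament genes Gfap, Nes and Des averaged 0.170, 0.133 and 0.0138 TPM. Lcp1, the plastin of leukocytes that bundles filaments, stood at 458 ± 34.4 TPM, against 3.13 ± 0.847 TPM for Pls3 and 0.0910 TPM for Pls1. Flna, filamin A, stood at 388 ± 10.4 TPM, and its muscle paralog Flnc averaged 0.0364 TPM.

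**Figure D3:**
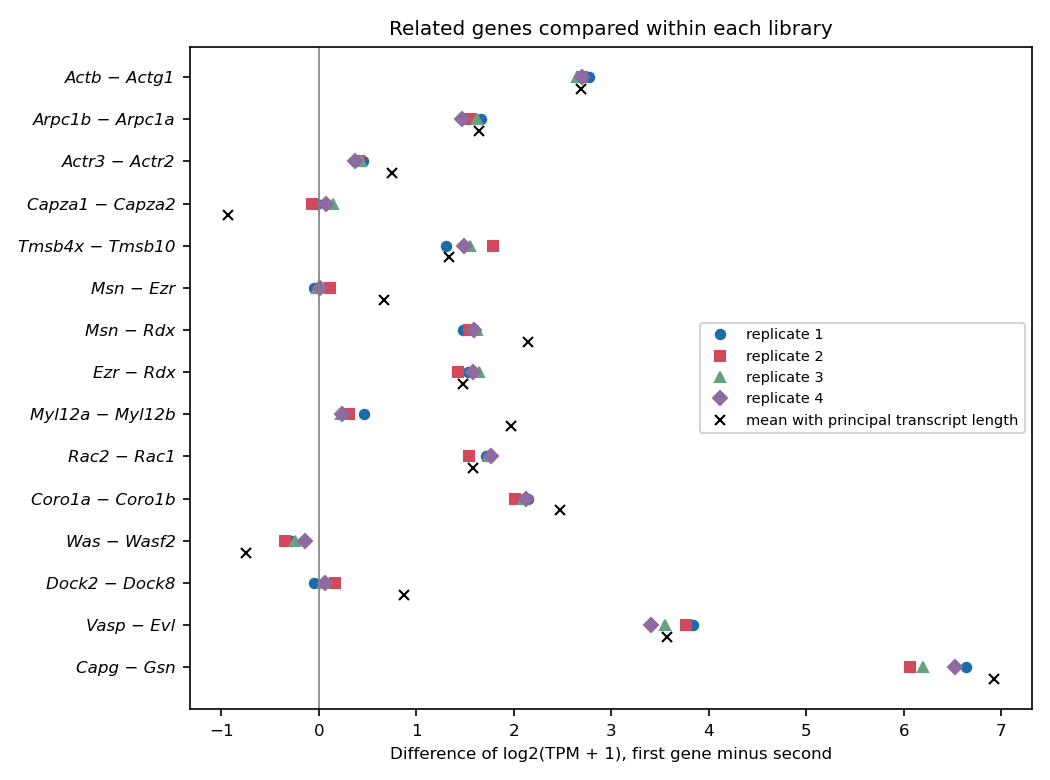
Difference of log2(TPM + 1) between the genes of each of 15 pairs, first gene minus second, in each of the 4 libraries (coloured symbols), with the mean recomputed from principal transcript lengths as a cross. Capza1 and Capza2, Msn and Ezr, and Dock2 and Dock8 straddle 0 across libraries, but their crosses lie at -0.93, 0.67 and 0.88.

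In 12 of the 15 pairs the difference had 1 sign in all 4 libraries, and in 3 pairs it did not. In the level order of the 43 genes, 31 of 42 neighbouring pairs overlapped in their library values, so ranks a few places apart were not separated. With principal transcript lengths 38 of the 43 mean levels moved by more than 1 SD between libraries. For 7 genes the level was over 1.5 times as high (Myl6, Myl12a, Rhoa, Arpc3, Pfn1, Lcp1 and Capza2). For 0 it was lower by as much, but a larger fall was hardly possible. These levels were rescaled to the same total over all genes, which lowered genes whose own length did not change. Cfl1, with 2354 bases by both lengths, fell to 0.672 times its level. Actb and Tmsb4x stayed the 2 highest and Evl and Gsn the 2 lowest.

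The other genes of the pathway, from lists chosen by role, were also expressed. Of 60 such genes 58 reached 1 TPM in every library, with a median of 80.4 TPM, and 26 averaged over 100 TPM. All 9 actin turnover genes were expressed, led by Cap1, which helps cofilin recycle monomers, at 414 ± 20.4 TPM. All 10 bundling and adhesion genes were, led by Tagln2, transgelin 2, at 893 ± 26.2 TPM, and all 10 immune synapse adaptor genes, led by Itgb2, the beta chain of the integrin LFA-1, at 772 ± 55.2 TPM. Its partner Itgal stood at 338 ± 11.7 TPM. The paralogs of the 43 genes were lower. Of 50 paralogs 26 were expressed in every library, with a median of 4.71 TPM, 4 averaged over 100 TPM, and 6 had no count in any library.

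Many actin genes are also high in other cell types, so markers of those cells were read in the same libraries. In bulk RNA fewer cells of a type and less RNA per cell cannot be told apart. None of the 10 smooth muscle and fibroblast markers reached 1 TPM in every library, and their summed level was 2.87 to 4.65 TPM per library, with Col3a1 and Dcn at no count. None of 5 neutrophil markers had a count. Of 6 erythroid and platelet markers 0 were expressed throughout (summed level 0.876 to 1.51 TPM), of 6 monocyte and macrophage markers 1 (Adgre1, 1.75 ± 0.721 TPM; sum 1.19 to 3.29 TPM), of 5 B cell markers 1 (Cd79b, 5.37 ± 1.02 TPM; sum 5.32 to 7.34 TPM) and of 4 NK cell markers 1 (Eomes, 1.96 ± 0.496 TPM; sum 1.58 to 2.71 TPM). Of 5 endothelial and epithelial markers 2 were expressed, Epcam and Krt18, with a sum of 2.46 to 5.56 TPM.

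The last question was whether any of the 43 genes varied between libraries beyond genes of similar abundance. At an adjusted p under 0.05, 0 of 43 did in the goodness-of-fit test of edgeR, against 0.378% of the 13478 genes tested (51 genes). At an unadjusted p under 0.05 the count was also 0 of 43 by edgeR, against 5.97% of all. It was 1 of 43 in 3 alternatives, Tmsb10 with the dispersion trend of DESeq2, Gsn with the GC trend removed and Capza2 without replicate 1. Gsn and Evl came nearest to the threshold, each with an edgeR adjusted p of 0.973. Tmsb10, Capza2 and Myl12b came next, each with an edgeR adjusted p of 0.9998. Of the 90 other pathway and paralog genes tested 0 were called by edgeR, 5 had an unadjusted p under 0.05, and the smallest edgeR adjusted p was 0.114, for Pfn4, which stood highest in replicate 1. A p that misses the threshold does not show that levels were equal.

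The coefficient of variation (SD over mean TPM) ran from 1.03% for Myl12a to 19.1% for Gsn, with a median of 5.06%, and was under 10% for 38 of the 43 genes. The highest library exceeded the lowest by 1.02 to 1.48 times. On the log2 CPM scale (counts scaled by library size) the median range over the 4 libraries was 0.18 for the 43 genes and 0.31 for all genes tested, and 39 of the 43 lay under that median. Spread falls with abundance, so a fairer setting is the 1975 genes over 100 TPM, with a median range of 0.19, beside 0.16 for the 39 members over 100 TPM. Gsn had the widest range of the 43, 0.49, and Evl the next, 0.38.

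**Figure D4:**
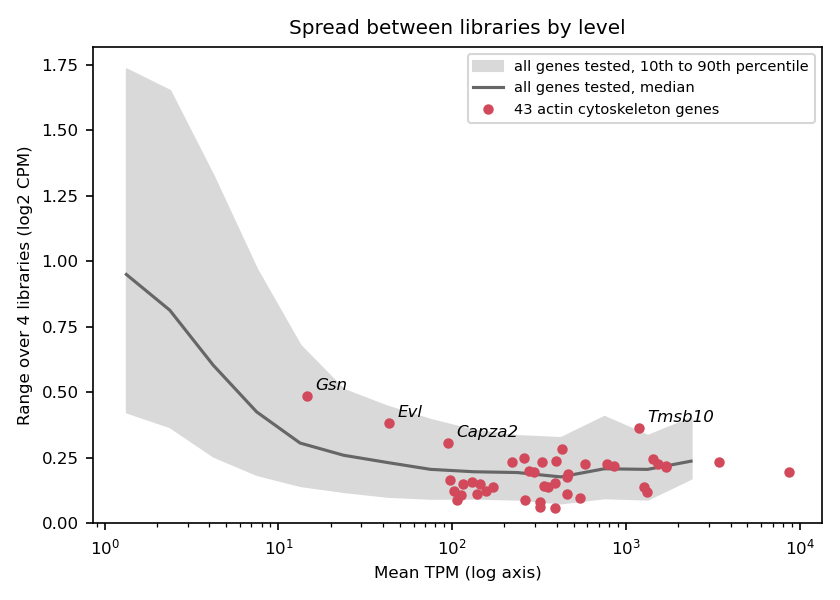
Range of log2 CPM over the 4 libraries against mean TPM (log axis) for the 43 genes (points), with the median (line) and the 10th to 90th percentile (band) of all genes tested in bins of level. Gsn, Evl, Capza2 and Tmsb10 are labelled. The points have a median range of 0.18, against 0.31 for all genes tested, and most lie inside the band.

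Small shifts between libraries were shared by members with similar base composition, and which library stood high depended in part on the scale. On log2 CPM scaled by TMM, the scale of the goodness-of-fit test, replicate 2 was the highest library for 15 of the 43 genes (28.2% of all genes tested) and the lowest for 19 (28.9%). On log2(TPM + 1), the scale of the levels above, it was the highest for 19 (38.7%) and the lowest for 10 (20.2%). Replicate 1 was the highest for 10 (30.3%) and the lowest for 17 (30.1%) on CPM, and the highest for 7 (23.3%) and the lowest for 24 (36.5%) on TPM. It is the library with the most Gm42418, whose part in its TPM was not tested. Replicate 3 was the lowest for 2 genes (19.9%) on CPM and for 3 (23.6%) on TPM, and replicate 4 for 5 (21.1%) and 6 (19.7%). The scales differ by a nearly constant amount per library, with a median over all genes tested of -0.03, 0.04, -0.02 and 0.01 (log2) on TPM for replicates 1 to 4, against values that round to 0.00 on CPM.

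The split by transcript GC content was present on both scales for the 15 genes under 50% GC. Of these, 13 lay above their own mean in replicate 2 on CPM and 13 on TPM, against 69.0% and 78.5% of all tested genes under 50% GC. In replicate 1 the number was 1 on either scale, against 39.7% of all on CPM and 31.0% on TPM. In replicate 3 it was 5 on CPM (37.1%) and 4 on TPM (29.4%). In replicate 4 it was 10 on CPM (55.4%) and 11 on TPM (57.4%). For the 28 genes at 50% GC or more the count in replicate 2 depended on the scale, at 4 on CPM (34.1% of all tested genes at 50% or more) and 13 on TPM (46.4%). In replicate 3 it was 26 on CPM (64.2%) and 21 on TPM (56.1%), and in replicate 1 it was 15 (59.9%) and 14 (50.7%). Replicate 4 had 14 on CPM (46.6%) and 16 on TPM (49.2%). The limit of 50% was chosen after the values were seen.

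Across the 43 genes the deviation from a gene's mean (log2 CPM) correlated with GC content with a Pearson r of 0.47, -0.68, 0.62 and -0.07 for replicates 1 to 4. On log2(TPM + 1) the members' r was 0.49, -0.69, 0.62 and -0.07. Across all genes tested r on CPM was 0.10, -0.24, 0.22 and -0.07, and across the 1975 genes over 100 TPM 0.29, -0.40, 0.23 and -0.16. These are correlations across genes of the same libraries, which are not independent replicates. The median deviation of the genes under 50% GC in replicate 2 was 0.08 (log2 CPM) among the members and 0.07 among all genes tested, so the shift was of similar size in both. Each library's trend on GC content was fitted over all genes tested, these 43 included, so removing it can lower their spread by construction. After removal the SD of the member deviations was 0.0729 in replicate 1, against 0.0833 before. It was 0.0779, against 0.106, in replicate 2 and 0.0466, against 0.0603, in replicate 3. In replicate 4 it stayed near its value, at 0.0632 against 0.0628. Capza2, with 39.3% GC the lowest of the 43, stood highest in replicate 2 and lowest in replicate 3. Tmsb10, with 58.0% GC, stood lowest in replicate 2, where its deviation of -0.2499 (log2 CPM) was the lowest of the 43. Vasp, with 60.4% GC the highest of the 43, deviated there by only -0.0419. Whether base composition accounts for these shifts was not tested.

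**Figure D5:**
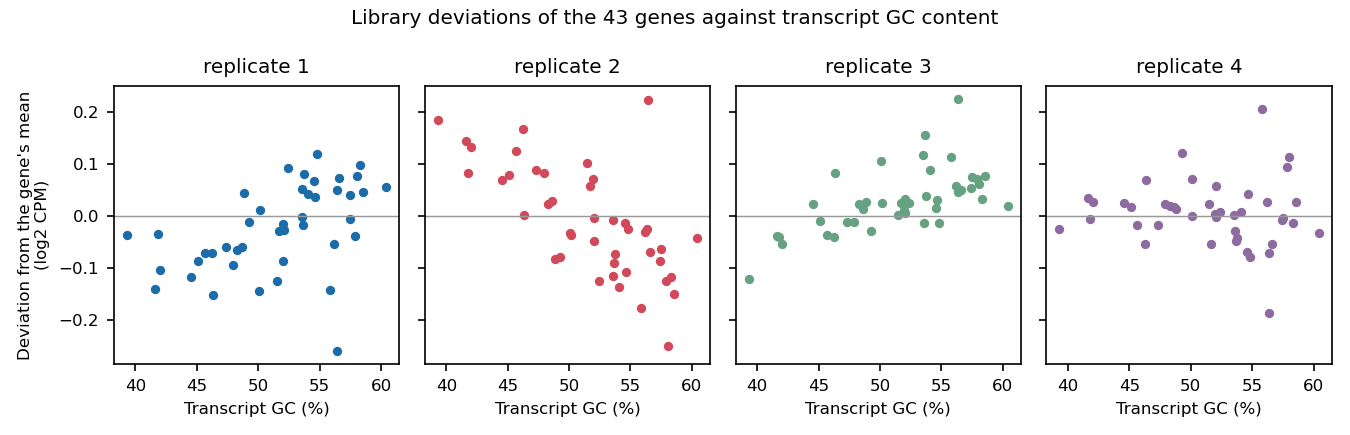
Deviation of log2 CPM from each gene's mean over the 4 libraries, against transcript GC content in percent, with 1 panel per replicate and 1 point for each of the 43 genes. Points fall from left to right in replicate 2 (r = -0.68) and climb in replicates 1 and 3 (r = 0.47 and 0.62).

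The same deviations were read by role. In replicate 2, 1 of 4 monomer-binding genes lay above its mean on either scale, as did 4 of 6 GTPase and exchange factor genes, while the 3 ERM genes did so in 2 cases on CPM and 3 on TPM. For the actin monomers and myosin in replicate 2 the direction was not settled, since 0 of 2 and 0 of 4 genes lay above their means on CPM, but 2 of 2 and 2 of 4 on TPM. In replicate 3 all 4 myosin genes and all 4 monomer-binding genes lay above their means on both scales. The myosin genes did so in replicate 4 as well. All of these genes except Tmsb4x have 50% GC or more. Of all genes tested in that class, 64.2% on CPM and 56.1% on TPM lay above their means in replicate 3. In replicate 4 it was 46.6% and 49.2%. In replicate 2 the shares were 34.1% and 46.4%, against 69.0% and 78.5% under 50% GC. Role was not separated from GC content. The median deviation of a role that lay farthest from 0 on CPM was that of the monomer-binding genes in replicate 2, at -0.12 (log2).

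Of the 43 genes 4 lie on the X chromosome, Tmsb4x, Msn, Flna and Was. Flna measured 401 and 381 TPM in libraries 1 and 2, in which Xist was high, and 393 and 379 TPM in libraries 3 and 4, in which it was low, so these values overlapped, as did those of Msn. For Tmsb4x and Was the values given above were lower in libraries 1 and 2 than in libraries 3 and 4, with a gap between 3539 and 3579 TPM for Tmsb4x and between 145 and 146 TPM for Was. On log2 CPM the Was values overlapped. Neither gap was tested against Xist. The share of all genes whose values did not overlap in this way was not computed, so no excess among these genes can be read. By edgeR's goodness-of-fit test the adjusted p of each of the 4 genes was 0.9998.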

How the data were processed

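Total RNA of mouse regulatory T cells was sequenced in 4 libraries. The assay title reads total RNA-seq, but the protocol linked for library construction names polyA+ RNA. Per the file headers, the authors aligned reads with STAR and counted read pairs per gene with featureCounts 1.4.6-p4 over GENCODE M13, by strand and leaving out multimapping and overlapping reads. The deposited values are raw counts. The assembly is mm10, per the labels. For read length, trimming and alignment settings, no value is given in the sources used here. The merged exon length of each gene is also in the deposited files.

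Symbols came from GENCODE M21 and matched 50376 of 50600 identifiers. The 224 unmatched ones took up to 0.0103% of a library's counts. TPM was computed from the counts and the deposited lengths, with genes called expressed at 1 TPM in every library. A floor of 3 counts stood at 0.0652, 0.0416, 0.0316 and 0.0919 CPM in replicates 1 to 4 and covers counting error only. Between any 2 libraries the chi-square per gene was at least 11.8, so no library was treated as a copy of another.

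Spread was tested in edgeR 4.0.16 (R 4.3.3). Genes passed filterByExpr (minimum count 10), were scaled by TMM and fitted with an intercept alone, and each gene's goodness-of-fit was tested at the trended dispersion, adjusted by Benjamini-Hochberg over all genes tested and called at 0.05. Its common biological coefficient of variation was 0.135. The script was tested on simulated data. DESeq2 1.42.0 gave alternative size factors and a dispersion trend. The 15 pairs were compared on log2(TPM + 1) with exact sign-flip permutation over libraries, two-sided (Python 3.11.15). Sharing of 50-base and 100-base windows of each member's longest principal transcript was counted in GENCODE M21 transcripts on either strand of genes at other loci. Alternatives were filters, scalings, units, lengths and leaving out each library; the principal transcript length, the GC trend and the reading of library deviations on TPM were added after seeing the data.

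The members and lists were chosen with earlier results of these data known. All 43 genes are accounted for by role. Values in every library are given for the genes of the pairs, the 5 highest, the 5 lowest and the 5 with the smallest goodness-of-fit p; from other lists the highest gene, and those under 1 TPM where few, are named. Other pathway genes, such as Nckap1l, Cyfip2, Stk10, Vav1 and Itgal, were named after their values were seen. The highest gene of 1 paralog list is not reported here.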

Additional observations from a re-analysis of the deposited data

Results flagged for a closer look

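In 6 of the 59 values examined (43 gene levels, 15 pair differences and the share of TPM), 1 library stood apart from the other 3, with a gap to its nearest neighbour that passed Dixon's 95% limit as a share of the whole range. All 6 were gene levels. Chance gives this in about 5% of such values if no library is shifted as a whole. On TPM the libraries were shifted, and the share over all genes was not computed, so 6 of 59 is not read as an excess. Vim was high in replicate 3, at 1567 TPM, with the other libraries at 1377 to 1386 TPM. Arpc3 was high in replicate 4, at 303 TPM, with the others at 268 to 271 TPM. Arpc5 was high in replicate 2, at 456 TPM, with the others at 366 to 381 TPM. Tmsb4x was low in replicate 1, at 3008 TPM, with the others at 3539 to 3605.5 TPM. Actg1 was low in replicate 4, at 1270.3 TPM, with the others at 1342 to 1353 TPM. Myl12a was low in replicate 1, at 314 TPM, with the others at 320.4 to 321 TPM, although on log2 CPM its lowest library was replicate 2. The limit was applied to TPM and not to log2 CPM. On log2 CPM the gap took a smaller share of the range, under that limit, for Vim, Arpc3, Tmsb4x, Actg1 and Myl12a. Only for Arpc5 did it stay above the limit. Actg1 deviated there from its mean by 0.0492, -0.0245, 0.0458 and -0.0706 in replicates 1 to 4. Arpc5 deviated by -0.0712, 0.1661, -0.0409 and -0.0539. None of the 6 was called by edgeR's goodness-of-fit test, where the adjusted p of each was 0.9998.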

How the results depend on the processing

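Of the 43 genes 0 were called variable by edgeR's goodness-of-fit test in each of the 11 alternatives run. The count over all genes, 51, was 931 with a common dispersion and 17 to 56 when 1 replicate was left out, 17 of them without replicate 1; the other alternatives gave 38 to 72. Capza1 minus Capza2, 0.03 (log2), was -0.60 on log2(CPM + 1), -0.93 with principal transcript lengths and -0.0030 to 0.069 with 1 replicate left out, the lowest without replicate 3. Msn minus Ezr, 0.01, was -0.02 (-0.0215, without replicate 2) to 0.033 with 1 replicate left out, 0.95 on log2(CPM + 1) and 0.67 with principal lengths, where Dock2 minus Dock8, 0.05, was 0.60 and 0.88. The other 13 differences kept their sign in every alternative. The share of TPM, 3.24%, was 3.17% of counts, 3.34% without genes under 200 bp, 3.32% without mitochondrially encoded genes and 3.61% with principal transcript lengths. The median member level, 339 TPM, was 349 TPM without the short genes and 358 TPM with principal lengths. For single levels, 10 of 43 moved by more than 1 SD without the short genes, 38 with principal lengths, and 0 when scaled by TMM or with any 1 replicate left out. The counts for short genes and principal lengths include a rescaling of all genes to the same total. No paired analysis was possible because there is 1 group. Exact p values cannot go under 0.13 with 4 libraries or 0.25 with 3, so pair calls rest on sign and size. TPM depends on which isoform is expressed, which gene counts do not show, and on reads that match several loci, which were not counted. Depth did not limit the 43 genes, whose lowest count was 405.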
